A study of Mus musculus with 8 samples.

Results

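In pancreatic islets that overexpressed uncoupling protein 2 in β-cells, *Syt5* fell past the limits of the test, 1 of 39 insulin granule exocytosis genes. Of all genes tested 0.207% were called lower, and the call of *Syt5* was kept under 12 of 27 alternative settings. The larger differences of *Unc13a*, *Rab37* and *Rims1* did not pass the limits. Insulin leaves the β-cell by regulated exocytosis, and 39 genes encoding proteins that anchor, dock, prime and fuse insulin granules were followed on gene expression arrays. They were listed by their known roles and found by symbol in the authors' table, which holds 26894 gene symbols in all. Each gene was read from the probe with the highest mean over the 8 deposited normalized columns. All 39 genes were found, and the selected probe of each was well above background on all 8 arrays.

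Islets came from 4 βUCP2Tg samples and 4 WT samples of male mice. βUCP2Tg mice carry a mouse *Ucp2* cDNA behind a promoter of the rat *Ins2* gene, with an intron of rabbit β-globin, and were backcrossed to C57BL6/J. WT mice were littermates without the transgene, and the methods give an age of 8 to 12 weeks for mice whose islets were isolated. Islets are described there as cultured overnight after isolation, and by the labels those of both genotypes were then kept for 8 h in RPMI medium with 200 mg/dL glucose and 10% FBS. The insulin promoter restricts the transgene to β-cells, whereas the RNA came from whole islets, which also hold α-, δ- and PP-cells, vessels, macrophages and some exocrine tissue. Whether a sample is a single mouse or a pool was not settled here, so p-values measure the spread between samples, which may be technical. Fewer cells of a type and less RNA per cell cannot be told apart in such RNA.

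Insulin is stored in dense-core granules that wait beneath the plasma membrane. Rab GTPases on the granule and their effectors carry it to scaffolds at the docking site, and Munc13 and CAPS proteins then prime it for release. Fusion is driven by SNARE proteins, when VAMP on the granule zippers with syntaxin and SNAP-25 on the plasma membrane. Ca2+ entering after glucose stimulation is sensed by synaptotagmins and Doc2 proteins, complexins hold or assist the assembled SNAREs, and NSF with α-SNAP pulls the used SNAREs apart. Loss of several of these proteins in mice impairs insulin secretion.

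The transgene was seen on every βUCP2Tg array. *Ucp2* lay between 6.99 and 7.71 on the log2 scale on βUCP2Tg arrays and between 0.92 and 1.46 on WT arrays (log2 fold change 6.24, SE 0.18, adjusted p = 9.3e-06). Levels are log2 intensities relative to the 75th percentile of the array, so that a probe is compared between arrays and never with another probe. The islet hormones *Ins1*, *Ins2*, *Gcg*, *Sst* and *Ppy* were bright on all arrays and none passed the test. The summed level of 9 β-cell markers, which its brightest genes dominate, was 10.15 to 10.56 on βUCP2Tg and 10.51 to 10.55 on WT arrays on the log2 scale. At an unadjusted p under 0.05 in limma 2 of the 9 were lower and none higher, beside 11.6% and 12.9% of all genes. These were *Mafa* (log2 fold change -0.34) and *G6pc2* (-0.33), and neither was called. Of 23 acinar markers 22 were tested and the transcription factor *Ptf1a* was not above background on any array. Their summed log2 level was 4.29, 5.69, 4.63 and 8.25 on βUCP2Tg arrays 1 to 4 and 7.64, 8.58, 9.0 and 4.97 on WT arrays 1 to 4, so that exocrine RNA varied widely within both groups. A list of 20 hypoxia response genes, of which all were measured on all arrays, had a summed log2 level of 7.62, 7.60, 7.60 and 8.67 on βUCP2Tg arrays and 8.29, 9.23, 9.11 and 9.2 on WT arrays. By unadjusted p 15 of the 20 were lower in βUCP2Tg islets and none higher, beside 11.6% of all genes lower, and their median log2 fold change was -1.22. None of the 20 was called, the groups overlapped in the summed level, and its two-sided exact permutation p was 0.0571. βUCP2Tg array 4 and WT array 1 stood apart from the rest of their groups in this list, and the genes whose values move most without them are given both ways. All 8 arrays shared a slide, on which WT took the first row and βUCP2Tg the second, so that genotype and row cannot be told apart.

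Among the 39 genes, *Syt5* fell in βUCP2Tg islets, by 1.69-fold, and no gene rose past both limits, which were an adjusted p under 0.05 and a change over 1.5-fold. *Syt5* was called under 12 of 27 alternative settings, which include 2 of the 8 fits that left out a single array, those without βUCP2Tg array 4 and without WT array 1. For comparison, of all 17857 genes tested by the same rule 0.482% were called, 0.274% as higher and 0.207% as lower in the transgenic islets. At an unadjusted p under 0.05 in limma, 12 of 39 genes differed, 3 of them higher and 9 lower. Over all genes tested 24.5% passed this looser limit, 12.9% higher and 11.6% lower. The groups did not overlap for 9 genes, of which 2 lay higher and 7 lower on every βUCP2Tg array, while 6.36% and 6.74% of all genes did so, 13.1% together. The median log2 fold change of the 39 genes was -0.0046, beside 0.026 over all genes tested, and 19 genes lay above and 20 below 0.

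**Figure D1:**
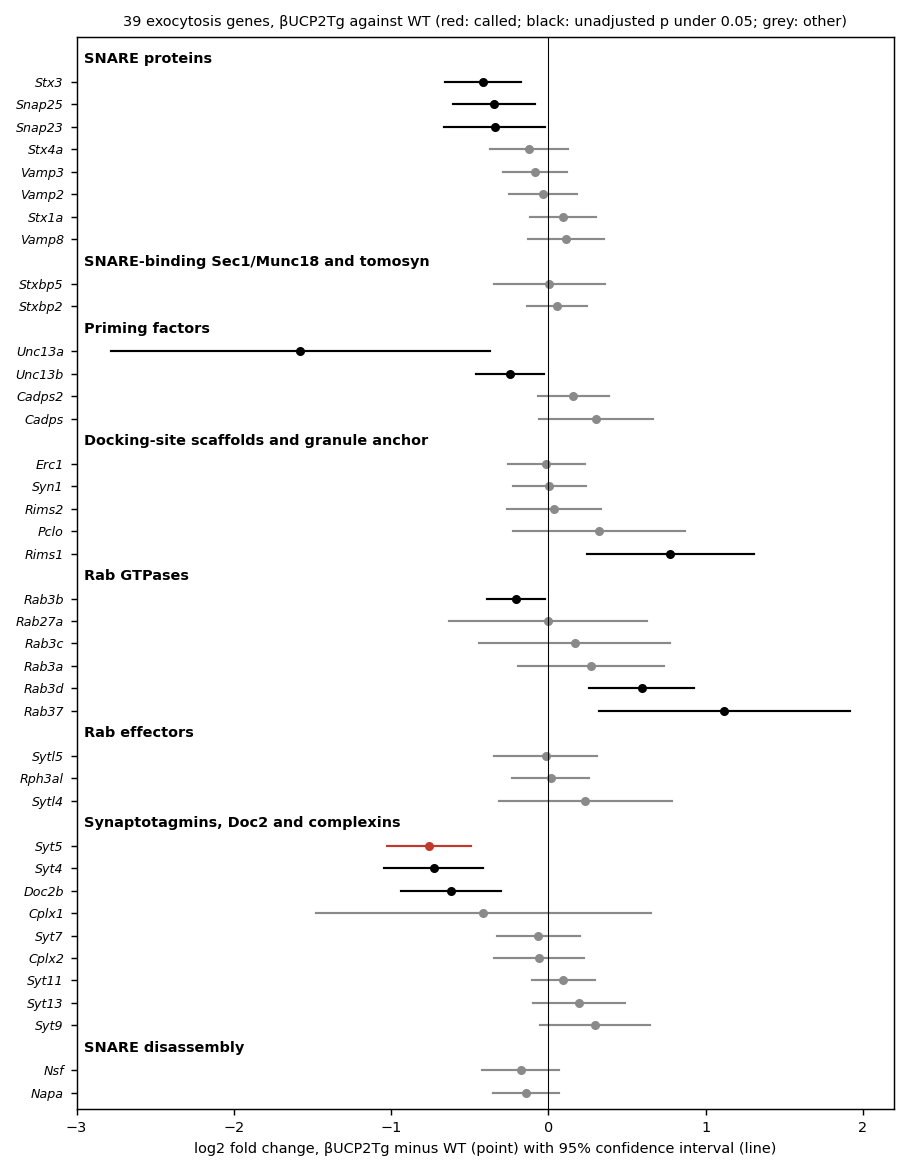
Log2 fold change of each of the 39 genes, βUCP2Tg minus WT, with its 95% confidence interval from limma, grouped by the role of the protein. *Syt5* (red, -0.76) was the gene past both limits, 11 further genes passed an unadjusted p of 0.05 (black), and the widest interval was that of *Unc13a*, -2.78 to -0.37.

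Of the 8 SNARE genes none was called, and the plasma membrane SNAREs *Stx3*, *Snap25* and *Snap23* were lower in βUCP2Tg islets at an unadjusted p under 0.05. *Stx3*, a syntaxin of the plasma membrane that takes part in granule fusion, had log2 levels of 2.81, 2.86, 2.78 and 2.94 on βUCP2Tg arrays 1 to 4 and of 3.04, 3.40, 3.38 and 3.23 on WT arrays 1 to 4. Every βUCP2Tg array was below every WT array (log2 fold change -0.41, SE 0.11, adjusted p = 0.0895), and a second probe of *Stx3* gave -0.18 (SE 0.17). *Snap25*, the neuronal and endocrine partner of syntaxin, lay at 2.96, 2.69, 2.90 and 2.82 on βUCP2Tg arrays and at 3.42, 3.08, 3.05 and 3.19 on WT arrays. The groups did not overlap, and the values were low on every βUCP2Tg array (log2 fold change -0.34, SE 0.11, adjusted p = 0.125). Its other probes gave log2 fold changes of -0.65 (SE 0.22) and -0.25 (SE 0.11), both in the same direction. *Snap23*, the widely expressed relative of SNAP-25, was at 2.82, 2.47, 2.76 and 2.76 on βUCP2Tg arrays and at 3.26, 2.72, 3.15 and 3.05 on WT arrays. Its groups overlapped, because WT array 2 was as low as the βUCP2Tg arrays (log2 fold change -0.34, SE 0.14, adjusted p = 0.179), and the 3 other probes of *Snap23* gave log2 fold changes between -0.29 and -0.20.

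The brightest probes of *Snap25* and *Snap23* hold a simple repeat, and their sequences are shown because such a stretch can bind other transcripts. For each 60-base probe of the authors' table a stretch of 30 bases is written 5′ to 3′, centred on the repeat where there is one and otherwise taken from the 5′ end, and capitals mark a tandem repeat of a unit of 2 to 6 bases that is at least 18 bases long.
Snap25 selected probe: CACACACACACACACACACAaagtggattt
Snap25 second probe: tagtcttggtttacgtggataaaaagaagt
Snap25 last probe: ccctgtaacaagcttaaatccagtgatgct
Snap23 selected probe: agatACACACACACACACACACACACAtga
Cplx2 selected probe: GGAGGAGGAGGAGGAGGAGGAGGAGGAGGA
Such a repeat was found in 4 of the 81 probes of the 39 genes and in 251 of the 56689 probes that have a sequence. The repeat covered 20 bases of the selected *Snap25* probe, 23 of the *Snap23* probe and 44 of the selected probe of *Cplx2*, which encodes complexin 2. A run of 20 bases of these 3 probes was also found in probes of 28, 32 and 7 other genes or unnamed targets, and no probe of the 39 genes without a repeat shared such a run. Whether the level read from the *Cplx2* probes holds signal from other transcripts was not tested. For *Snap25* and *Snap23*, the probes without a repeat gave the same direction.

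The remaining SNARE genes stayed within narrow intervals. *Stx1a*, the syntaxin that pairs with SNAP-25, was at -1.07, -1.06, -1.02 and -0.97 on βUCP2Tg arrays and at -1.30, -1.07, -1.10 and -1.03 on WT arrays, a difference of 0.09 (95% interval -0.11 to 0.30, adjusted p = 0.546). *Vamp2*, the SNARE of the granule membrane, was at 3.03, 3.01, 3.14 and 3.20 and at 3.22, 3.01, 3.06 and 3.22, a difference of -0.03 (95% interval -0.25 to 0.18, adjusted p = 0.844). The groups overlapped for both genes. *Stx4a*, *Vamp3* and *Vamp8*, which encode further SNAREs found on islet granules or the plasma membrane, had log2 fold changes of -0.12, -0.08 and 0.11.

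Both genes of SNARE-binding proteins passed no limit. *Stxbp2*, a Sec1/Munc18 protein that binds syntaxin, had a log2 fold change of 0.05 (95% interval -0.14 to 0.25). *Stxbp5*, which encodes the inhibitor tomosyn, had 0.01 (95% interval -0.35 to 0.36), and its 3 tested probes differed in sign (-0.05 and 0.22 for the others).

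Among the priming factors, *Unc13a* differed most of all 39 genes and *Unc13b* was lower on every βUCP2Tg array, whereas the CAPS genes lay slightly higher. *Unc13a* encodes Munc13-1, which opens syntaxin and makes docked granules ready for fusion. Its log2 level was -1.91, -1.71, -1.97 and -0.35 on βUCP2Tg arrays 1 to 4 and -1.32, 0.66, 0.74 and 0.30 on WT arrays 1 to 4. βUCP2Tg arrays 1 to 3 were low and WT arrays 2 to 4 high, while βUCP2Tg array 4 lay above WT array 1, so that the groups overlapped. The difference was -1.58 (SE 0.53), or 2.98-fold lower, with an adjusted p of 0.127. All 3 probes of *Unc13a*, which do not overlap in sequence, were lower in βUCP2Tg islets, with -1.52 (SE 0.32, adjusted p = 0.0714) for the second and -0.78 (SE 0.25, adjusted p = 0.12) for the last. For the second probe every βUCP2Tg array was below every WT array, at -2.43, -2.70, -2.62 and -1.69 against -1.59, -0.36, -0.47 and -0.93.

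The probes that carried the results for *Unc13a*, *Syt5*, *Doc2b*, *Rab3d* and *Rab37* are shown so that the measured stretch of each transcript can be seen, again by 30 of their 60 bases. Capitals mark the poly(A) signal letters AATAAA or ATTAAA, searched over the whole probe on the strand that the table writes, which 13.3% of all probes hold.
Unc13a selected probe: cgggaatgcacgggctcatctcacagaaca
Unc13a second probe: acatatgagcagccaagggacacctgagat
Unc13a last probe: agttcgccaccaaatccaaaaacaacagct
Syt5 selected probe: ctcttggggccaAATAAAatactcaatagc
Doc2b selected probe: cacgaaacaatttttgtaatcttgtctgac
Rab3d selected probe: ctattcactgaccagactcccctaaacact
Rab3d second probe: cgctaccggacaatcaccacggcctactat
Rab37 selected probe: tgtttttccagaATTAAAttgcagtatttt
Rab37 second probe: ccctagaggctataagatccttgcttattg
Of the 39 selected probes 13 hold these letters, among them those of *Syt5* and *Rab37*. The letters are absent from the probes of *Unc13a*, *Doc2b* and *Rab3d* and from the second probe of *Rab37*, which says nothing about where those transcripts end.

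*Unc13b*, which encodes Munc13-2, was at 2.41, 2.24, 2.36 and 2.36 on βUCP2Tg arrays and at 2.76, 2.53, 2.55 and 2.51 on WT arrays on the log2 scale. Every βUCP2Tg array was below every WT array by a small margin (log2 fold change -0.24, SE 0.09, adjusted p = 0.159), and its second probe gave -0.46 (SE 0.15). *Cadps*, which encodes the priming factor CAPS1 of dense-core granules, was at 2.82, 2.94, 2.98 and 2.45 on βUCP2Tg arrays and at 2.71, 2.28, 2.32 and 2.67 on WT arrays. Its groups overlapped (log2 fold change 0.30, SE 0.16, adjusted p = 0.267), and a second probe gave 0.01 (SE 0.12). *Cadps2*, its close relative, had a log2 fold change of 0.16 (95% interval -0.06 to 0.38).

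Of the 5 genes for docking-site scaffolds and the granule anchor synapsin, *Rims1* was higher on every βUCP2Tg array and none was called. *Rims1* encodes a scaffold that joins Rab3, Munc13 and Ca2+ channels. It was at -3.58, -3.54, -4.19 and -4.06 on βUCP2Tg arrays and at -5.17, -4.63, -4.25 and -4.44 on WT arrays (log2 fold change 0.78, SE 0.23, adjusted p = 0.109), from the only probe of 4 that was tested. With normexp background correction, which adds an offset of 50 to every intensity, its log2 fold change was 0.092 (adjusted p = 0.511). *Rims2*, the scaffold isoform known for its part in cAMP-stimulated insulin secretion, gave different answers by probe. The selected probe had a log2 fold change of 0.03 (95% interval -0.26 to 0.33). Its second probe, assigned to transcript variant 3, was lower on every βUCP2Tg array, at -1.46, -1.69, -1.72 and -1.45 against -1.27, -1.08, -1.12 and -1.0 on WT arrays (log2 fold change -0.46, SE 0.11, adjusted p = 0.083).

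*Erc1*, which encodes the active-zone protein ELKS, had 3 probes with 3 patterns. Its selected probe did not separate the groups (-0.01, SE 0.11). The second probe was higher on every βUCP2Tg array, at -2.12, -2.34, -2.18 and -2.40 against -2.55, -2.74, -2.59 and -2.45 (log2 fold change 0.32, SE 0.10, adjusted p = 0.121). The last, assigned to transcript variant 2, was lower on every βUCP2Tg array, at -3.42, -3.59, -3.59 and -3.17 against -3.05, -2.80, -2.68 and -3.02 (log2 fold change -0.56, SE 0.13, adjusted p = 0.0868). The probes of both scaffold genes are shown because they read different stretches of the transcripts, with the poly(A) signal letters again searched and found in none.
Rims2 selected probe: tttcctgacactaagatgcagtcacataag
Rims2 second probe: aatggaaaccatgttaaggaatgattcttt
Erc1 selected probe: gatgatgacatcacaaagatgtgttctgtt
Erc1 second probe: aatagaagcaagttaaagttgtatattgga
Erc1 last probe: gagcccagagttaaagaaagagcgggcctt
None of these 5 probes passed the limits of the test, and a difference between probes of a gene was not itself tested. *Pclo*, which encodes the Ca2+-binding scaffold piccolo, had 0.32 (95% interval -0.23 to 0.87) from its selected probe, 0.31 from the second and -0.06 from the last. *Syn1*, which encodes synapsin, differed by 0.01 (95% interval -0.23 to 0.24).

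The Rab GTPases of the granule went in both directions, with *Rab3d* and *Rab37* higher and *Rab3b* lower at an unadjusted p under 0.05 and none of 6 called. *Rab3d*, a Rab3 family member also known from the zymogen granules of exocrine cells, was at 2.65, 2.66, 2.64 and 2.36 on βUCP2Tg arrays and at 2.18, 1.84, 1.69 and 2.22 on WT arrays. Every βUCP2Tg array was above every WT array (log2 fold change 0.59, SE 0.15, adjusted p = 0.0871). The second probe of *Rab3d* also separated the groups and gave 0.53 (SE 0.13, adjusted p = 0.0871). WT arrays 2 and 3 had the lowest *Rab3d* and the highest summed acinar level, βUCP2Tg array 4 had a high acinar level with *Rab3d* above all WT arrays, and WT array 4 had a low acinar level with *Rab3d* below all βUCP2Tg arrays. With the acinar level as a covariate the log2 fold change of *Rab3d* was 0.43 (adjusted p = 0.198).

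*Rab37* is a Rab of secretory granules in islets and mast cells. It was at 4.53, 4.51, 4.37 and 3.68 on βUCP2Tg arrays 1 to 4 and at 4.16, 2.66, 2.70 and 3.09 on WT arrays 1 to 4, which was 2.17-fold higher in βUCP2Tg (log2 fold change 1.12, SE 0.35, adjusted p = 0.115). βUCP2Tg array 4 was the lowest of its group and WT array 1 the highest, above βUCP2Tg array 4, so that the groups overlapped. The second *Rab37* probe gave -0.16 (SE 0.30, adjusted p = 0.771) and was low on all arrays, between -4.22 and -2.76. *Rab3b* was at 2.44, 2.47, 2.54 and 2.37 on βUCP2Tg arrays and at 2.62, 2.64, 2.69 and 2.69 on WT arrays, lower on every βUCP2Tg array by a small amount (log2 fold change -0.21, SE 0.08, adjusted p = 0.161).

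*Rab3a*, the Rab3 form that recruits RIM and Noc2 to the granule, was at 3.70, 3.54, 3.52 and 3.42 on βUCP2Tg arrays and at 3.73, 2.84, 2.97 and 3.54 on WT arrays. WT arrays 2 and 3 were low and WT array 1 was the highest of all, and the groups overlapped (log2 fold change 0.27, SE 0.20, adjusted p = 0.429). *Rab27a*, which docks granules through granuphilin, was at 1.46, 1.5, 1.40 and 1.88 and at 1.64, 0.72, 1.89 and 2.01, with WT array 2 far below the others. Its fold change was -0.0046 (95% interval -0.63 to 0.63) and a second probe gave -0.34 (SE 0.13). *Rab3c* had 0.17 (95% interval -0.44 to 0.77).

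None of the 3 Rab effector genes passed any limit. *Sytl4*, which encodes granuphilin, had a log2 fold change of 0.24 (95% interval -0.31 to 0.78) from its selected probe and -0.28 from its second. *Rph3al*, which encodes Noc2, had 0.01 and -0.22, and *Sytl5* had -0.02.

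Of 9 genes for synaptotagmins, Doc2 and complexins, *Syt5*, *Syt4* and *Doc2b* were lower on every βUCP2Tg array, *Syt5* was called, and 6 passed no limit. *Syt5* encodes a synaptotagmin of secretory vesicles that binds Ca2+. On βUCP2Tg arrays 1 to 4 it was at 3.41, 3.25, 3.25 and 3.65, and on WT arrays 1 to 4 at 4.05, 4.11, 4.14 and 4.30. The highest βUCP2Tg array lay below the lowest WT array, and the fold change was -0.76 (SE 0.12, 95% interval -1.03 to -0.49, adjusted p = 0.0456, two-sided exact permutation p = 0.0286, the smallest that 4 arrays against 4 allow).

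*Syt4*, which encodes a synaptotagmin that does not bind Ca2+ in the usual way and modulates its sensitivity in β-cells, was at 1.92, 1.8, 1.81 and 2.16 on βUCP2Tg arrays. On WT arrays it was at 2.38, 2.70, 2.61 and 2.91, above every βUCP2Tg array. The difference was close to that of *Syt5* but its adjusted p was outside the limit (log2 fold change -0.73, SE 0.14, adjusted p = 0.0635, 95% interval -1.04 to -0.41). *Doc2b*, a Ca2+ sensor of high affinity that binds Munc18 and SNAREs, was at -1.70, -1.81, -2.14 and -1.69 on βUCP2Tg arrays and at -1.20, -1.0, -1.45 and -1.21 on WT arrays. Again the groups did not overlap (log2 fold change -0.62, SE 0.14, adjusted p = 0.0817). These 3 genes have a single probe each.

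*Syt7*, which encodes a main Ca2+ sensor for insulin release, was at 0.31, 0.27, 0.32 and 0.21 on βUCP2Tg arrays and at 0.12, 0.59, 0.40 and 0.25 on WT arrays. The groups overlapped, and the difference was -0.06 (95% interval -0.33 to 0.20, adjusted p = 0.759). *Syt9*, which encodes another Ca2+ sensor of insulin granules, and *Syt11* and *Syt13*, whose proteins bind little or no Ca2+, had log2 fold changes of 0.30, 0.10 and 0.20, none past an unadjusted p of 0.05. *Cplx1*, which encodes complexin 1, varied widely between arrays (-0.41, 95% interval -1.48 to 0.65), from -3.16 on WT array 1 to -0.86 on WT array 2. *Cplx2*, read from the repeat probes, had -0.06 from the selected probe and 0.14 from the other.

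Both genes of SNARE disassembly lay slightly lower, and their selected probes passed no limit. *Nsf*, the ATPase, had -0.17 (95% interval -0.42 to 0.07), and *Napa*, which encodes its adaptor α-SNAP, had -0.14 (95% interval -0.35 to 0.07). Its 3 further probes gave *Nsf* log2 fold changes between -0.49 and -0.24, and those at -0.49 and -0.24 had an unadjusted p under 0.05 in limma. In all, 27 of the 39 genes passed no limit by the selected probe, and 21 of these lay within 0.2 of 0 on the log2 scale. Besides *Nsf*, other probes of *Rims2*, *Erc1* and *Rab27a* passed the unadjusted limit, and none of these was called.

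**Figure D2:**
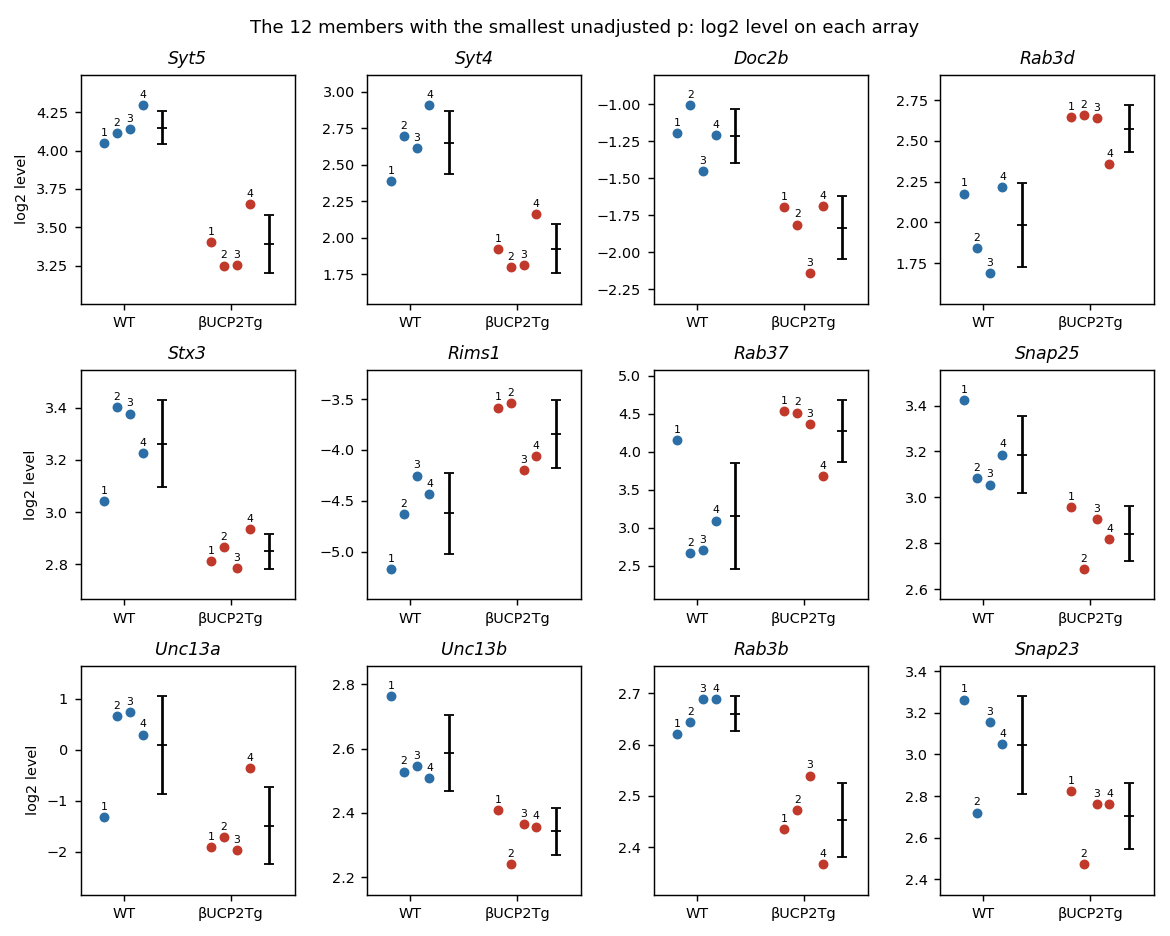
Log2 level relative to the 75th percentile of the array for the 12 genes with the smallest unadjusted p, with a point for each array (number beside it) and the mean ± SD of 4 arrays per group in black. The groups are fully apart for 9 of the 12, which are 9 of the 39 genes, beside 13.1% of all genes tested. They overlap for *Snap23*, *Unc13a* and *Rab37*, and the 12 were chosen by p from these same values. Vertical scales differ between panels.

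A further 90 genes of the exocytosis pathway, none among the 39, were listed by role, and 85 of them could be tested. *Rab26*, a Rab of secretory granules, was called higher in βUCP2Tg islets, at -2.19, -2.58, -2.79 and -2.90 against -3.81, -3.93, -3.91 and -3.56 on WT arrays on the log2 scale (log2 fold change 1.19, SE 0.17, adjusted p = 0.0456). This call was kept under 14 of 27 alternative settings, 2 of the 8 fits without a single array among them, and over all 27 the adjusted p went up to 0.504 with the hypoxia level as a covariate and the log2 fold change down to 0.44 with normexp. At an unadjusted p under 0.05, 15 of the 85 were higher and 11 lower, which is 17.6% and 12.9% beside 12.9% and 11.6% of all genes. The groups did not overlap for 12 genes in each direction, 28.2% of the 85 beside 13.1% of all genes, and nothing particular to the list was tested. The calcium sensor *Syt2* was at -1.55, -1.88, -1.62 and -1.56 on βUCP2Tg arrays and at -2.10, -3.04, -2.87 and -2.90 on WT arrays (log2 fold change 1.08, SE 0.21, adjusted p = 0.0635). It lay above all WT arrays on every βUCP2Tg array but did not pass the adjusted limit. Likewise apart were *Syt16* (log2 fold change 0.73, SE 0.17, adjusted p = 0.083), the endosomal syntaxin *Stx12* (log2 fold change -0.68, SE 0.16, adjusted p = 0.0834) and the Munc13-related *Baiap3* (log2 fold change 0.65, SE 0.16, adjusted p = 0.0868). With normexp the log2 fold change was 0.58 for *Syt2* and 0.23 for *Syt16*, and with the hypoxia level as a covariate 0.34 for *Syt16* and -0.26 for *Stx12*. The median log2 fold change of the 85 genes was -0.0032, close to that of the 39 genes. The remaining 5 genes, *Unc13c*, *Rph3a*, *Syt15* and *Cplx4* among them, were measured on too few arrays to be tested.

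Leaving out the pair of arrays that stood apart in the hypoxia list turned several of the wide differences into calls. This pair was chosen from these same data, and for *Unc13a* and *Rab37* it is the pair that made the groups overlap. The adjusted p-values on 6 arrays are therefore descriptive only. On the remaining 3 arrays per group, *Rab37* (1.65, adjusted p = 0.0015), *Rab3d* (0.73, adjusted p = 0.0186) and *Pclo* (0.67, adjusted p = 0.0222) were called higher in limma. *Unc13a* (-2.42, SE 0.15, adjusted p = 5.6e-04), *Syt4* (-0.90, adjusted p = 0.00449), *Syt5* (-0.88, adjusted p = 0.00362) and *Doc2b* (-0.66, adjusted p = 0.0342) were called lower. On the same 6 arrays 9.22% of all genes were called higher and 6.46% lower. *Stx3* (-0.52, adjusted p = 0.0138) and *Cadps* (0.49, adjusted p = 0.0404) passed the adjusted p there but differed by less than 1.5-fold. Log2 fold changes that moved by over 1.5 times without a call were those of *Cadps*, to 0.49, *Cplx1*, to -1.01, and *Sytl4*, to 0.50. Those of *Rab3a*, to 0.47, *Syt13*, to 0.31, and *Syt9*, to 0.17, did so too, beside genes within 0.25 of 0 in both fits. Without WT array 1 alone, 2 of the 39 genes were called higher and 4 lower, beside 6.89% and 4.56% of all genes. Without βUCP2Tg array 4 alone 2 were called lower, beside 2.15% of all genes. When any of the other 6 arrays was left out, none of the 39 genes was called, *Syt5* included, and at most 0.0905% of all genes were called higher and 0.0168% lower.

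**Figure D3:**
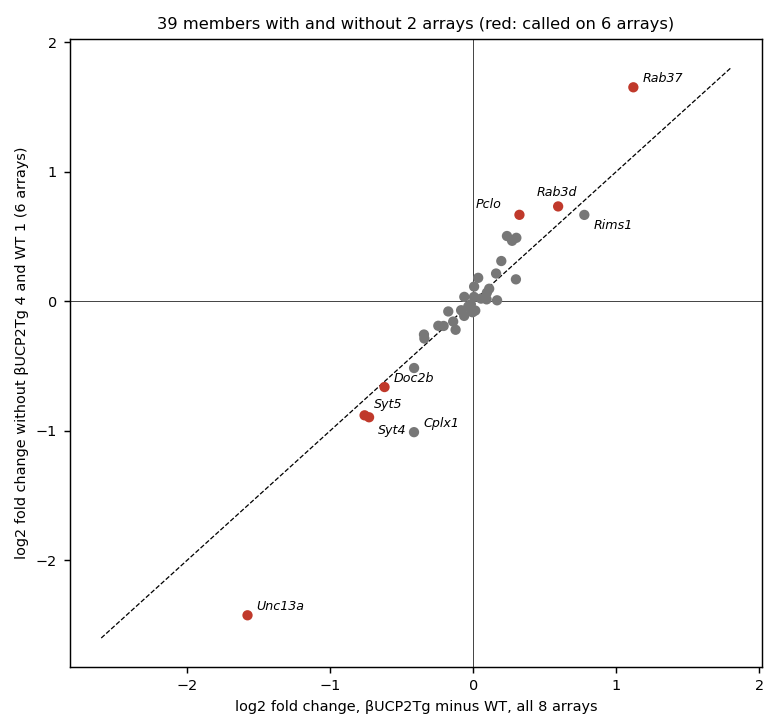
Log2 fold change, βUCP2Tg minus WT, of the 39 genes on all 8 arrays (horizontal) and on the 6 arrays without βUCP2Tg array 4 and WT array 1 (vertical), with the line of equal values dashed. *Unc13a* moved from -1.58 to -2.42 and *Rab37* from 1.12 to 1.65, the genes called on 6 arrays are in red, and *Cplx1* and *Rims1* are named for their distance from the rest.

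The order of the arrays in *Unc13a* and *Rab37* followed that of the hypoxia response genes. βUCP2Tg arrays 1 to 3 had the lowest summed hypoxia level and the lowest *Unc13a*, WT array 1 and βUCP2Tg array 4 came next in that order in both, and WT arrays 2 to 4 were highest. *Rab37* ran the opposite way in the same sequence of arrays, and *Pclo* was lowest on WT arrays 2 and 3 and on βUCP2Tg array 4. When the mean log2 level of the hypoxia list, which was lower on most βUCP2Tg arrays, was added to the fit, the difference between genotypes was 0.10 for *Unc13a* and 0.09 for *Rab37* on the log2 scale (adjusted p = 0.974 and 0.975). In the same fit *Syt5* differed by -0.50, *Doc2b* by -0.52 and *Syt4* by -0.39 (adjusted p = 0.525, 0.693 and 0.65), and none of the 39 genes was called, beside 4 higher and 1 lower of all 17857 genes. *Rab3d* went from 0.59 to 0.32 and *Stx3* from -0.41 to -0.22 (adjusted p = 0.79 and 0.792). *Pclo* went from 0.32 to -0.35 and *Cplx1* from -0.41 to 0.72 in this fit (adjusted p = 0.79 and 0.825), and the sign of 14 of the 39 genes turned. With the acinar list in place of the hypoxia list, *Syt5* differed by -0.73 (adjusted p = 0.135) and *Unc13a* by -1.17 (adjusted p = 0.331), again with no call among the 39 and 12 higher and 3 lower over all genes. The mean log2 level of the hypoxia list was 1.36 to 1.39 on βUCP2Tg arrays 1 to 3 and 3.06 to 3.08 on WT arrays 2 to 4. WT array 1 (2.12) and βUCP2Tg array 4 (2.64) lay between. The fit with the hypoxia list can therefore hardly tell that level apart from genotype. The part of hypoxia or of exocrine RNA in these differences was not tested.

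**Figure D4:**
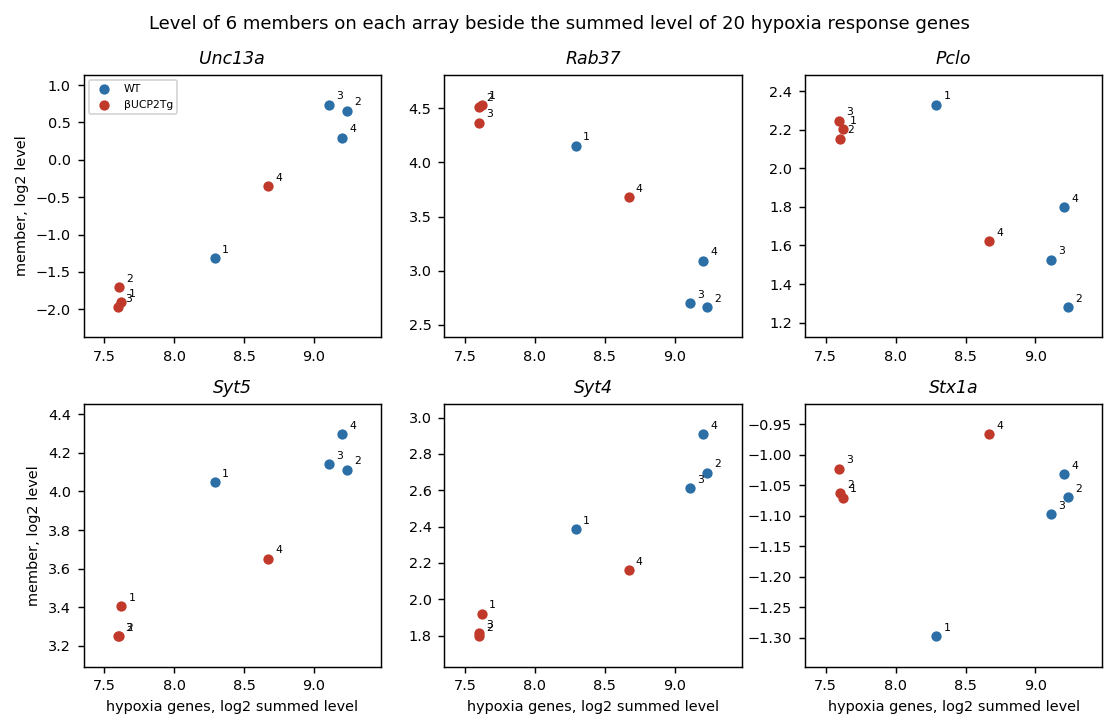
Log2 level of 6 genes on each array (vertical) beside the log2 summed level of 20 hypoxia response genes on that array (horizontal), with WT in blue, βUCP2Tg in red and the array number beside each point. *Unc13a* is high and *Rab37* low on WT arrays 2 to 4, where the hypoxia level is 9.11 to 9.23, whereas *Stx1a* shows no such order.

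**Figure D5:**
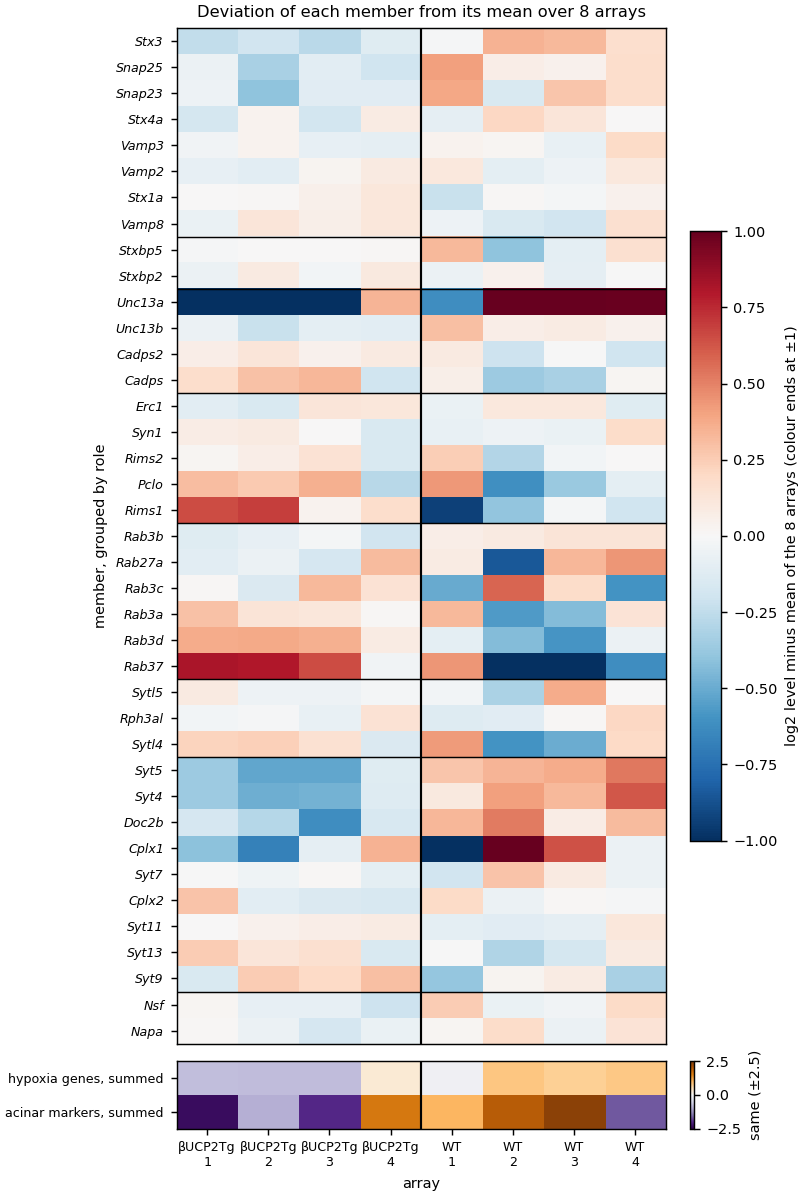
Deviation of each of the 39 genes from its mean over 8 arrays on the log2 scale (upper map, colour ends at 1 in each direction, horizontal lines between roles) and of the summed hypoxia and acinar levels (lower map). *Unc13a*, *Cplx1* and *Rab37* reach the end of the colour scale, βUCP2Tg array 4 and WT array 1 lie closer to the middle for *Unc13a* and *Rab37*, and *Syt5*, *Syt4* and *Doc2b* are blue on all 4 βUCP2Tg arrays.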

How the data were processed

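Islet RNA from 4 βUCP2Tg and 4 WT samples was labelled with Cy3 and hybridised to one-colour Agilent mouse arrays. The deposited scanner files hold linear spot intensities, from which Feature Extraction had already removed background and a spatial trend (version 10.7.3.1 per the file headers, 9.1 per the labels), and arrays were not scaled to each other. The authors also deposited GeneSpring values on the log2 scale, shifted by a constant on each array. Their table further holds the authors' own fold change and p-value for each probe, deposited with the values and not used here. Its deposited flags and the log2 fold change of the authors were not used either.

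The 3671 control spots and all spots marked as outliers were removed. Processed intensities were put on the log2 scale and expressed relative to the 75th percentile of their array, with spots of a probe averaged. A probe was measured where at least 50% of its spots were well above background. The 35363 probes measured on at least 4 of 8 arrays were compared with limma 3.58.1 in R 4.3.3 (lmFit, eBayes), with Benjamini-Hochberg adjustment over all of them. Genes were called where the adjusted p was under 0.05 and the change exceeded 1.5-fold. Single genes were also compared by two-sided exact permutation of 4 against 4 arrays, and the number of arrays limits the precision. The fit was tested on simulated data.

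The members, the roles and the lists of other exocytosis genes, markers and hypoxia genes were chosen with earlier results of these data known. Values on each array are given for genes that were called, that did not overlap between groups or that had the 12 smallest unadjusted p, and for *Snap25*, *Stx1a*, *Vamp2*, *Unc13a*, *Rab3a*, *Rab27a*, *Syt7* and *Cadps*. Other exocytosis genes were named where called or among the 5 smallest p. Genes whose probes differ in sign were named. Alternatives were other filters, normalizations and tests, array weights, 2-fold or no fold limit, other rules for choosing a probe, the replicate block, leaving out arrays, and the acinar or hypoxia level as a covariate. Probe sequences and gene symbols came from the deposited table, read with pandas under Python 3.11.15. The header names the build mm9, and no coordinates are given because no genome of that build was used. Plots were drawn with matplotlib.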

Additional observations from a re-analysis of the deposited data

Results flagged for a closer look

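In 9 of 104 groups of 4 arrays, a single array stood apart from the other 3 by Dixon's ratio, its gap to the nearest array divided by the range of the group, which was above the 95% critical value for 4 samples. About 5.2 such groups are expected among 104 by chance alone. Of these, 7 belonged to exocytosis genes. βUCP2Tg array 4 stood apart for *Unc13a* (ratio 0.837, at -0.35 against -1.97 to -1.71 on the other arrays), for *Pclo* (0.851, at 1.62 against 2.15 to 2.25) and for *Rab3d* (0.925, at 2.36 against 2.64 to 2.66). WT array 1 stood apart for *Unc13b* (0.858, at 2.76 against 2.51 to 2.55). WT array 4 stood apart for *Syn1* (0.898, at 2.54 against 2.28 to 2.31) and for *Syt11* (0.879, at 1.96 against 1.74 to 1.76). βUCP2Tg array 1 stood apart for *Cplx2* (0.880, at 5.83 against 5.39 to 5.44), which is read from a repeat probe. The summed level of the hypoxia response genes set βUCP2Tg array 4 (0.978, at 8.67 against 7.60 to 7.62) and WT array 1 (0.869, at 8.29 against 9.11 to 9.23) apart from their groups. All values are log2 levels.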

How the results depend on the processing

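With 4 arrays a group, the single call among the 39 genes depended on the setting. No member was called lower without a filter on dim probes, with a filter at 1 array, with quantile normalization, with the median of each array, with the methods' t-test, at a 2-fold limit, or with the acinar or hypoxia level as a covariate. 2 were called lower with normexp and with an intensity trend, and 4 with array weights. Without βUCP2Tg array 4 and WT array 1, 4 were called lower and 3 higher, beside 6.46% and 9.22% of all genes. Shares over all genes are given only for arrays left out and for the covariates, so counts at the other settings cannot be set against them. Members past an unadjusted p of 0.05 numbered 5 lower with the median of each array, and 8 and 7 higher with array weights and without both arrays, within 5 to 13 lower and 2 to 8 higher over all settings. Centring on the median of each array moved the median log2 fold change of the 39 genes to 0.056, and leaving out single arrays gave -0.057 to 0.020.

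Leaving out single arrays gave 0 to 4 members called lower and 0 to 2 higher, 3 to 6 higher and 6 to 9 lower at an unadjusted p of 0.05, and 0 to 6 other exocytosis genes called higher and 0 to 1 lower. Other exocytosis genes called higher numbered 0 without a filter, with a filter at 1 array, with the methods' t-test and with either covariate. They numbered 2 with an intensity trend or any probe of a gene and 9 with array weights, where no share over all genes is given. Without both arrays they numbered 8, beside 9.22% of all genes. Those called lower numbered 1 with normexp, 3 with array weights and 2 without both arrays, the last beside 6.46% of all genes.

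Whether the replicate numbers pair the samples was not settled. Deviations of arrays with the same number correlated at 0.44, -0.047, -0.0086 and -0.24, and those with different numbers at -0.47 to 0.46. With the replicate number as a block, 0 members and 0 other exocytosis genes were called.

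Some values changed sign, most of them near 0. *Rab27a* was 0.0065 with quantile normalization, 0.0041 with the percentile over probes measured on all arrays, 0.056 with the median of each array, 0.013 with normexp, 0.012 with the deposited values, 0.00042 with outlier spots kept, 0.197 with the hypoxia level as a covariate, and -0.29 to 0.14 without single arrays. *Vamp2* was 0.015 with quantile normalization and 0.026 with the median of each array. *Syt7* was 0.0101 with the hypoxia level and -0.14 to 0.021 without single arrays. With the hypoxia level 14 of the 39 genes changed sign, among them genes with larger differences: *Unc13a* was 0.098 (-1.58 on all arrays without it), *Cplx1* 0.72 (-0.41), *Pclo* -0.35 (0.32), *Cadps* -0.090 (0.30) and *Rab3a* -0.084 (0.27). All are log2 fold changes, and the cause was not tested.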

Other observations

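The WT arrays varied more than the βUCP2Tg arrays in most genes of the exocytosis machinery. The SD over 4 arrays was larger in WT for 30 of 39 genes (76.9%), beside 75.6% of all genes tested, and its median over the 39 genes was 0.17 in WT and 0.13 in βUCP2Tg on the log2 scale. Among the genes of the machinery this is therefore near the share over the whole array.

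The probes chosen for the 39 genes hold the poly(A) signal letters AATAAA or ATTAAA in 33.3% of cases, beside 13.3% of all probes with a sequence. The chosen probe is by rule the brightest of its gene, and the share of brightest probes over all genes was not computed.

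The non-β endocrine markers differed in their mean level. The mean log2 level of 8 α-, δ- and PP-cell markers was 4.17 to 4.29 on βUCP2Tg arrays and 3.91 to 4.09 on WT arrays, with no overlap (two-sided exact permutation p = 0.0286, the smallest possible), whereas their summed level, which the hormones dominate, was 9.44 to 9.77 and 9.35 to 9.60 and overlapped.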
